A study of Mus musculus with 12 samples.

Results

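The Cadm family (Cadm1 to Cadm4, also known as SynCAM or nectin-like molecules) was followed through 12 RNA sequencing libraries of sorted pontine nucleus neurons. The members were the 4 rows of the count table that carry these gene symbols, out of 23079 rows, and all 4 passed the filter on low counts that 14732 genes passed. The members were chosen by gene symbol, and the family was selected on its measured counts in these libraries, among them the higher Cadm2 level in Hoxa5tdTomato. Its values in comparisons that hold those libraries are therefore given as descriptions, with no test. All libraries came from mouse embryos of the CD-1 strain at E18.5, shortly before birth. In each replicate 2000 genetically labelled neurons were collected by FACS after dissection and dissociation of the pontine nucleus, which relays cortical input to the cerebellum. Hoxa5tdTomato libraries (n = 3) carry the name of Hoxa5, a Hox gene active along the hindbrain and spinal cord, and of the fluorescent reporter tdTomato. Libraries labelled Math1Hoxa5-IRES-GFP (n = 3) stand in columns that name Math1, Cag, lsl and Hoxa5. Math1tdTomato libraries (n = 6) are the references of the study, named after Math1 (Atoh1), which encodes a factor of the rhombic lip progenitors that pontine neurons come from. By their column names, 3 references name creErt2 and 3 name tdT; these are called the creErt2 references and the tdT references. The time at which the neurons were labelled, the animals behind each library and the cells in which each allele was active were not given in the sources used here. P-values therefore measure only the spread between these libraries, which may be technical.

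Cadm proteins are single-pass membrane proteins with immunoglobulin-like domains outside the cell. They bind each other across the gap between cells, both in like pairs and in unlike pairs such as Cadm1 with Cadm2 and Cadm3 with Cadm4, and Cadm1 also binds Nectin3 and Crtam. Their short cytoplasmic tails bind band 4.1 proteins and PDZ domain scaffolds such as Cask, Mpp6 and syntenin. In the brain, Cadm1 is known for promoting synapse assembly, Cadm2 and Cadm3 occur on axons, and Cadm4 is best known from myelinating glia.

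In the GRCm38 build with GENCODE M21 annotation, Cadm2 (gene ID 239857) lies at chr16:66655421-67620908 on the minus strand and spans 965.5 kb with 6 annotated transcripts. Cadm1 (54725) lies at chr9:47530173-47857637 on the plus strand and spans 327.5 kb. Cadm3 (94332) at chr1:173333258-173367695 on the minus strand and Cadm4 (260299) at chr7:24482023-24504539 on the plus strand are short genes of 34.4 and 22.5 kb. The 250 bases upstream of the annotated start are shown for Cadm2, the member whose counts differed most between groups, and for Cadm3, the member whose levels differed least. They come from RefSeq on GRCm38.p6, written 5′ to 3′ on the strand of the gene, with the Cadm2 window at chr16:67620909-67621158 and the Cadm3 window at chr1:173367696-173367945. Capitals mark CCAAT boxes, the motif bound by NF-Y, which read ATTGG where they lie on the other strand.
Cadm2: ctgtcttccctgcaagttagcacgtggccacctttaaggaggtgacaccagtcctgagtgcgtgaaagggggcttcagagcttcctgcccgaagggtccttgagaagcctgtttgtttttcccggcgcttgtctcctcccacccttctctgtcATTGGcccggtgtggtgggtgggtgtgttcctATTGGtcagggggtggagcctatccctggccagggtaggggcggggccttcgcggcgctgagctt
Cadm3: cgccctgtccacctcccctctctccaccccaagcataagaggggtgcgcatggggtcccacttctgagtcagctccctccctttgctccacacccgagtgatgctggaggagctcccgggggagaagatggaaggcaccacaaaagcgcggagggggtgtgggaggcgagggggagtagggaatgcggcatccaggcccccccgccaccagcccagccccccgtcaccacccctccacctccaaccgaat
The Cadm2 window held 2 CCAAT boxes, both as ATTGG, starting 97 and 65 bases before the annotated start (positions -97 and -65). Among 27025 mouse promoter windows of 250 bases, 34.5% held CCAAT on either strand. The Cadm3 and Cadm4 windows held none. TGATNNAT, a motif of Hox and Pbx pairs, occurred in 7.91% of all windows, and TAATTA, a homeodomain motif, in 4.9%. Neither was present on either strand of the Cadm2, Cadm3 or Cadm4 window. G and C made up 60.8% of the Cadm2 window, 66.8% of the Cadm3 window and 75.2% of the Cadm4 window, against a median of 52.0% over all windows. Cadm1 is named only.

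Total counts were 9973484 to 13302076 per library in Hoxa5tdTomato and creErt2 references, called set 1 here, and 22355961 to 29820776 in Math1Hoxa5-IRES-GFP and tdT references, called set 2. No statement of the study in the sources used here pairs each group with its references. The columns of Hoxa5tdTomato and of the creErt2 references share cre in their names. The Math1Hoxa5-IRES-GFP columns share Math1 with both sorts of references, so their names do not single out the tdT references. The pairing in set 2 follows the split in total counts, and any difference between sets is also a difference in depth. Hoxa5 itself had 127, 221 and 119 CPM (the count relative to library size, scaled with TMM factors) in Hoxa5tdTomato libraries, against 4.35 to 32.2 CPM in references. In the libraries labelled Math1Hoxa5-IRES-GFP, Hoxa5 had 9.73, 16.8 and 81.9 CPM, so 2 of the 3 lay within the range of the references, and the edgeR difference was 1.35 ± 0.59 on the log2 scale (adjusted p = 0.255). Whether the counting covered the introduced Hoxa5 allele is not given in the sources used here, and directions drawn for this group rest on its labels. All 7 listed markers of pontine neurons (Barhl1, Etv1, Pax6, Slc17a6, Slc17a7, Tubb3 and Map2) were detected in each group, at summed levels of 2737 to 2978 CPM in Hoxa5tdTomato, 3566 to 3859 CPM in Math1Hoxa5-IRES-GFP and 3110 to 4196 CPM in references. The general neuronal genes Map2 and Tubb3 made up 77.4%, 73.1% and 77.5% of these sums in Hoxa5tdTomato, Math1Hoxa5-IRES-GFP and references, while Slc17a7 averaged 0.480 CPM, 0.546 CPM and 0.266 CPM and was at 0 in 3 libraries. Across genes, log2 CPM of replicates of a group correlated at 0.926 to 0.943, except in Math1Hoxa5-IRES-GFP at 0.860 to 0.914.

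Cadm2 was the member with the large difference, and it was higher in both Hoxa5 groups. It had 627, 536 and 579 CPM in Hoxa5tdTomato libraries. The libraries labelled Math1Hoxa5-IRES-GFP had 689.7, 715 and 493 CPM. Every library of both groups stood above all 6 references, a pattern that 7.15% of all genes showed in Hoxa5tdTomato and 3.11% in Math1Hoxa5-IRES-GFP. The references had 185, 184 and 177 CPM with creErt2 in the name and 122, 247 and 86.8 CPM with tdT. The creErt2 references lay close together, with an SD of 4.46 CPM, whereas the tdT references ranged over 2.85-fold and included both the lowest and the highest reference.

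**Figure D1:**
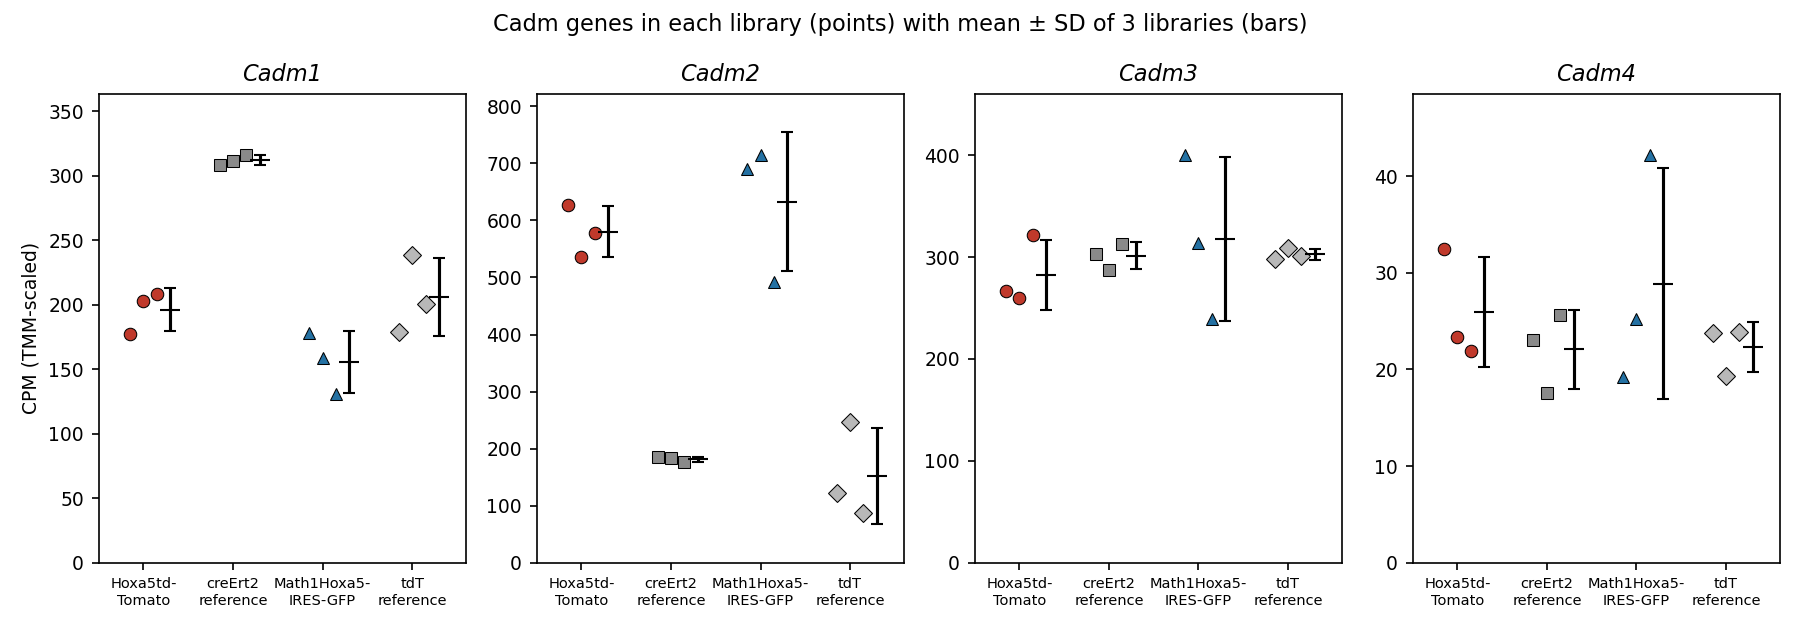
Cadm1 to Cadm4 in each library, in CPM scaled with TMM factors on linear axes from 0, with 1 panel per gene and 3 libraries per group as points; bars give the mean and SD. Cadm2 is at 493 CPM or more in all 6 Hoxa5tdTomato and Math1Hoxa5-IRES-GFP libraries and at 247 CPM or less in all 6 references, while Cadm3 and Cadm4 overlap between groups.

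In the test across 14732 genes (edgeR quasi-likelihood test, Benjamini-Hochberg adjusted p), Cadm2 rose in the libraries labelled Math1Hoxa5-IRES-GFP. It averaged 633 ± 122 CPM there (SD, n = 3) and 167 ± 55.9 CPM in references (n = 6), a log2 fold change of 1.92 ± 0.23 (SE, adjusted p = 0.000181), which is 3.79-fold. The family was selected on its measured counts in these libraries, and the same 6 references stand in the Hoxa5tdTomato difference. The p of this rise, like that against the tdT references, is therefore not independent of the selection. Set against the tdT references alone, at 152 ± 84.5 CPM (n = 3), the log2 fold change was 2.06 ± 0.28 (adjusted p = 0.00181). That call ended when only the 6 libraries of set 2 were fitted (2.07 ± 0.35, adjusted p = 0.0888), a fit that called 10 genes in all. Over its alternatives the edgeR or DESeq2 adjusted p of this within-set difference ran from 1.78e-09 to 0.0888. Cadm2 was the 1 of 4 members called against all references, where 1.84% of all genes were called and 1.3% were called higher. It was also the 1 of 4 called against tdT references, where 0.862% of all genes were called. Because of the selection, nothing is read from these counts of members beside the shares of all genes.

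For Hoxa5tdTomato the values are given as description. Cadm2 averaged 580.5 ± 45.3 CPM there (SD, n = 3), against 167 ± 55.9 CPM in all references and 182 ± 4.46 CPM in creErt2 references (n = 3). The log2 difference was 1.799 ± 0.23 from all references and 1.68 ± 0.28 from creErt2 references (SE). The family was selected on this difference, so nothing is read from Cadm2 being the 1 of 4 members past the threshold here; 1.73% of all genes passed it against all references and 0.557% against creErt2 references. Between the Hoxa5 groups the Cadm2 difference was -0.12 ± 0.27, Hoxa5tdTomato minus Math1Hoxa5-IRES-GFP, with overlapping libraries. With library size as the only scaling its sign turned, to 0.15. The 2 within-set changes of Cadm2 differed by -0.38 ± 0.38 (log2, set 1 minus set 2), a difference of the size of its error; this comparison was added after the data were seen.

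Between the references the Cadm2 difference did not pass the test. It averaged 182 ± 4.46 CPM in creErt2 references and 152 ± 84.5 CPM in tdT references, a log2 difference of 0.26 ± 0.27 (edgeR, adjusted p = 0.793). Without tdT reference replicate 3 this was -0.02, and without tdT reference replicate 2 it was 0.796 (edgeR, adjusted p = 0.0782). The difference thus depended on single tdT references. Math1Hoxa5-IRES-GFP differed from tdT references 4.16-fold in fitted level. The 2.85-fold between the lowest and the highest reference is a span of single libraries, so these measures are unlike. Between single libraries, the lowest Math1Hoxa5-IRES-GFP value was 493 CPM and the highest reference 247 CPM.

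**Figure D2:**
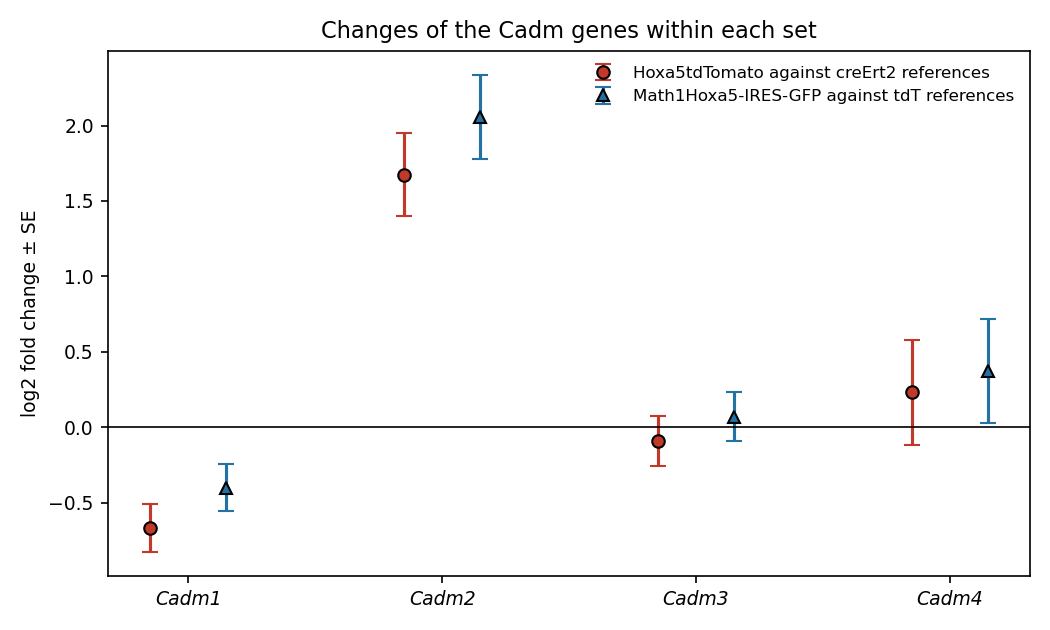
Log2 fold change of each Cadm gene with its standard error, Hoxa5tdTomato against creErt2 references as circles and Math1Hoxa5-IRES-GFP against tdT references as triangles, from the edgeR fit of 4 groups. Cadm2 lies at 1.68 and 2.06, Cadm1 at -0.67 and -0.40, and Cadm3 and Cadm4 lie within 0.37 of 0 in both.

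Cadm1, known as a binding partner of Cadm2 across the synaptic cleft, ran the other way but did not pass the test. It had 178, 159 and 131 CPM in the libraries labelled Math1Hoxa5-IRES-GFP, against 179, 239 and 200.5 CPM in tdT references and 309, 312 and 316 CPM in creErt2 references. No library of that group overlapped the references, though the nearest pair stood at 178.3 and 178.9 CPM. Of all genes, 3.27% were lower without overlap in this comparison. The mean was 156 ± 24.0 CPM (SD, n = 3) against 259 ± 61.3 CPM (n = 6), and the log2 fold change was -0.73 ± 0.20 with an edgeR adjusted p of 0.0672. DESeq2 called it (adjusted p = 0.0146), as did the edgeR fit without tdT reference replicate 1 (adjusted p = 0.0292). Over 19 alternatives the adjusted p ran from 0.0146 to 0.816. The highest came from the edgeR fit of set 2 alone, which compared with tdT references only. Within set 2 the fold change was -0.40 ± 0.16 (adjusted p = 0.278).

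In Hoxa5tdTomato libraries Cadm1 had 177, 203 and 208 CPM, all below the creErt2 references, as in 12.7% of all genes, and 2 of them within the range of the tdT references. The described differences were -0.67 ± 0.16 (log2) from creErt2 references and -0.40 ± 0.19 from all references. The creErt2 references stood above the tdT references in every library, as in 12.6% of all genes, at 312 ± 3.96 CPM against 206 ± 30.3 CPM (SD, n = 3 each), a log2 difference of 0.60 ± 0.16 (edgeR, adjusted p = 0.0801). In that comparison 1.34% of all genes were called. DESeq2 called this Cadm1 difference (adjusted p = 0.00838), and so did edgeR without Math1Hoxa5-IRES-GFP replicate 3 (adjusted p = 0.0128). The sorts of references thus differed in Cadm1 by 0.60, beside the 0.67 by which Hoxa5tdTomato lay below creErt2 references.

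Cadm3, an axonal family member that pairs with Cadm4, was the steadiest. It had 267, 259.5 and 322 CPM in Hoxa5tdTomato libraries and 400.5, 313 and 239.6 CPM in the libraries labelled Math1Hoxa5-IRES-GFP. All 6 references lay between 286.9 and 313 CPM, with a coefficient of variation of 3.02%. Both Hoxa5 groups overlapped the references, and the Math1Hoxa5-IRES-GFP libraries lay on both sides of them. The log2 fold change was 0.07 ± 0.15 in Math1Hoxa5-IRES-GFP against references (edgeR, adjusted p = 0.845), and the described value in Hoxa5tdTomato against references was -0.10 ± 0.15. The 3' end of Cadm3 shares 361 exon bases with Ackr1 on the same strand, listed in the table as Darc with 8106 counts over the 12 libraries. How reads there were split between them is not given in the sources used here, and Cadm3 is uncertain to that degree.

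Cadm4, the member known from myelinating glia, was the lowest of the family. It had 32.5, 23.4 and 22.0 CPM in Hoxa5tdTomato and 19.2, 25.2 and 42.2 CPM in the libraries labelled Math1Hoxa5-IRES-GFP. The creErt2 references had 23.1, 17.6 and 25.6 CPM and the tdT references 23.8, 19.4 and 23.8 CPM. Groups overlapped throughout, and the highest value was that of Math1Hoxa5-IRES-GFP replicate 3. The log2 fold change in Math1Hoxa5-IRES-GFP was 0.38 ± 0.29 against references (edgeR, adjusted p = 0.545), and Hoxa5tdTomato differed from references by a described 0.22 ± 0.29. Without Math1Hoxa5-IRES-GFP replicate 3 the change against tdT references was -0.01. The median log2 fold change of the 4 members in Math1Hoxa5-IRES-GFP against references was 0.23, beside -0.0018 over all genes tested.

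Levels of different genes were compared per length, as CPM per kb of the gene length in the table. Cadm2 led the family in all 6 Hoxa5tdTomato and Math1Hoxa5-IRES-GFP libraries, in the order Cadm2, Cadm3, Cadm1, Cadm4. It had 60.7 ± 4.73 CPM per kb in Hoxa5tdTomato (SD, n = 3) and 66.1 ± 12.7 CPM per kb in Math1Hoxa5-IRES-GFP (n = 3), against 17.4 ± 5.85 CPM per kb in references (n = 6). In references Cadm2 ranked below Cadm3 and Cadm1, and in tdT reference replicate 3 also below Cadm4. Cadm1 led in the 3 creErt2 references and Cadm3 in the 3 tdT references. The spans of Cadm1 and Cadm3 in tdT references did not overlap, at 29.4 to 39.2 and 46.1 to 47.7 CPM per kb, while in creErt2 references they were 50.7 to 52.0 and 44.4 to 48.5 CPM per kb.

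The share of Cadm2 in the summed family level was 40.8 ± 2.28% in Hoxa5tdTomato and 42.7 ± 3.42% in Math1Hoxa5-IRES-GFP, against 14.7 ± 3.97% in references. The lowest share among the Hoxa5 groups was 39.1% and the highest among references 21.2%. Cadm1 held 21.7 ± 2.27% in Hoxa5tdTomato and 16.6 ± 0.408% in Math1Hoxa5-IRES-GFP, against 36.0 ± 4.97% in references. A share of Cadm1 falls where Cadm2 rises, even at an unchanged Cadm1 level. The Cadm1 level was 32.3 CPM per kb in Hoxa5tdTomato and 25.6 CPM per kb in Math1Hoxa5-IRES-GFP. In tdT references it was 33.9 CPM per kb and in creErt2 references 51.3 CPM per kb. The ratio of Cadm2 to Cadm1 per kb was 1.90 ± 0.306 in Hoxa5tdTomato and 2.58 ± 0.254 in Math1Hoxa5-IRES-GFP, against 0.413 ± 0.131 in references. The sum of the family moved less, at 149 ± 7.41 CPM per kb in Hoxa5tdTomato and 154 ± 22.1 CPM per kb in Math1Hoxa5-IRES-GFP, against 117 ± 14.0 CPM per kb in references. These ratios do not depend on the scaling between libraries. Of all genes tested, 95.5% had a lower level per kb than Cadm2 in Hoxa5tdTomato and 95.2% in Math1Hoxa5-IRES-GFP, against 75.4% in references.

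**Figure D3:**
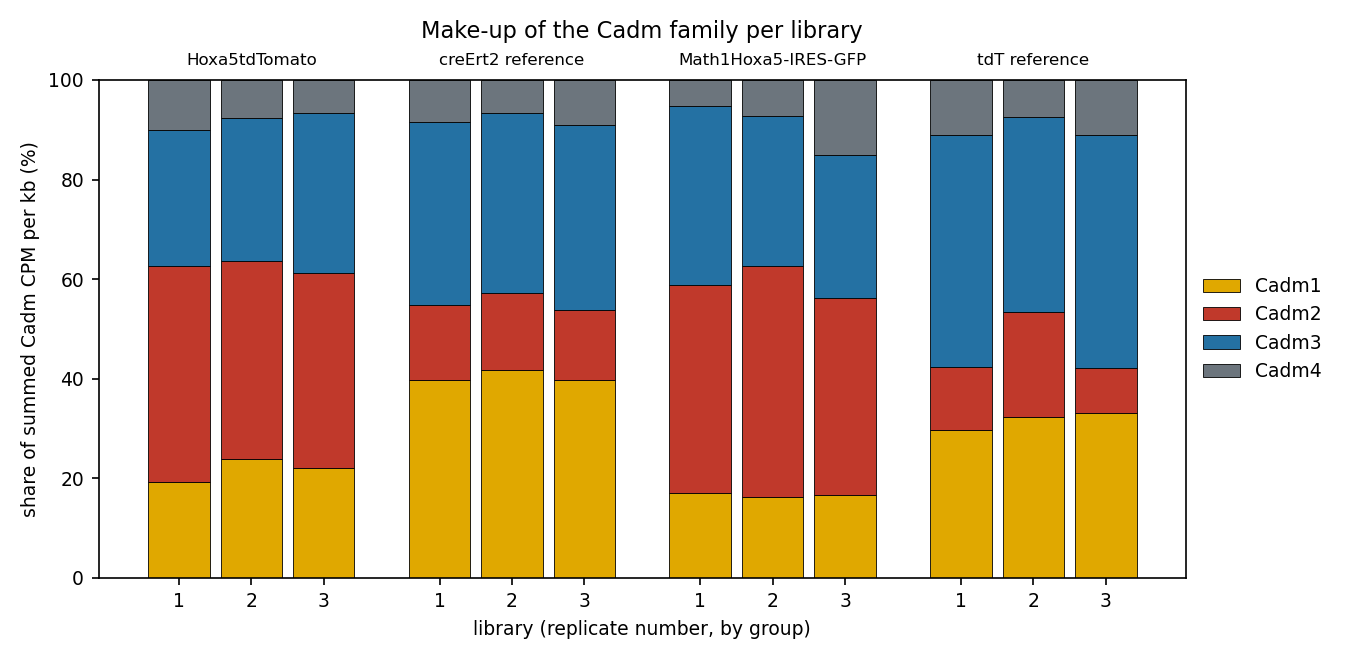
Share of each Cadm gene in the summed CPM per kb of the family, in percent, as a stacked bar for each of the 12 libraries by group and replicate number. The Cadm2 segment takes 39.1% or more in every Hoxa5tdTomato and Math1Hoxa5-IRES-GFP library and 21.2% or less in every reference.

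In each of the 4 column-name groups the library with the most Hoxa5 had the least Cadm2, a pattern noticed in the values and shared by 226 of 14732 genes (1.53%). Cadm1 showed it in 1 group, Cadm3 in 2 and Cadm4 in 0. As it was picked out of the values, no relation of Hoxa5 to Cadm2 is read from it. Among the libraries labelled Math1Hoxa5-IRES-GFP, replicate 3 had the most Hoxa5 (81.9 CPM) and the least Cadm2 (493 CPM), while replicates 1 and 2 had 9.73 and 16.8 CPM of Hoxa5 with 689.7 and 715 CPM of Cadm2. Among Hoxa5tdTomato libraries replicate 2 had the most Hoxa5 (221 CPM) and the least Cadm2 (536 CPM). Among the creErt2 references replicate 3 had 23.1 CPM of Hoxa5 and 177 CPM of Cadm2, close to the 185 and 184 CPM of Cadm2 in replicates 1 and 2. Among all references, tdT reference replicate 3 had the most Hoxa5 (32.2 CPM) and the least Cadm2 (86.8 CPM), and tdT reference replicate 2 the reverse, with 4.35 and 247 CPM. Math1Hoxa5-IRES-GFP replicate 3 also had the fewest genes with a count, 13074 against 15240 and 14872 in replicates 1 and 2, and the lowest Cadm1 and Cadm3 of its group. Each group holds too few libraries for a correlation, and none was computed over groups.

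**Figure D4:**
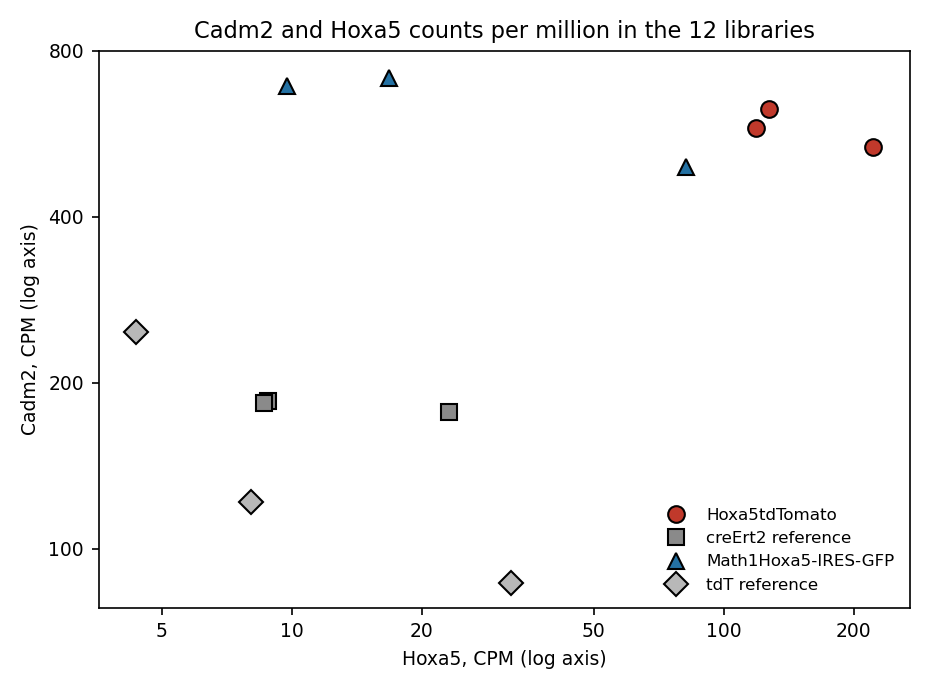
Cadm2 against Hoxa5 in each of the 12 libraries, both in CPM on log axes, with a symbol for each group. The 6 Hoxa5tdTomato and Math1Hoxa5-IRES-GFP libraries lie at 493 CPM of Cadm2 or more at Hoxa5 levels from 9.73 to 221 CPM, and the references lie at or below 247 CPM of Cadm2.

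Markers of other cells moved with some of these differences. In bulk libraries, fewer cells of a type and less RNA per cell cannot be told apart. Endothelial markers (all 11 listed genes with a count, among them Cldn5 and Pecam1) summed to 112 to 194 CPM in Hoxa5tdTomato, against 1.60 to 26.0 CPM in references, and pericyte markers (10 of 10 with a count in Hoxa5tdTomato) to 119.5 to 239 CPM against 2.99 to 29.0 CPM, with Anpep at 0 in all references. Their part in the Cadm2 level of Hoxa5tdTomato was not tested. In the libraries labelled Math1Hoxa5-IRES-GFP, endothelial markers summed to 0.802 to 36.6 CPM (10 of 11 with a count, Egfl7 at 0) and pericyte markers to 5.57 to 66.2 CPM. Both sums overlapped those of the references, and their part in the Cadm2 level was not tested there either. Meningeal markers summed to at most 14.7 CPM in any library and microglial markers to at most 62.4 CPM, both in Hoxa5tdTomato. The 10 astrocyte and radial glia markers summed to 1110 to 1555 CPM in Hoxa5tdTomato (Gfap at 0) and 1154 to 1464 CPM in Math1Hoxa5-IRES-GFP, against 736 to 1149 CPM in references. In Math1Hoxa5-IRES-GFP the largest terms were Slc1a2 and Ptprz1, at 522 and 396 CPM, against 376 and 141.5 CPM in references. Fabp7, Slc1a3, Aqp4, Tnc and Aldh1l1 had lower means there than in references.

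Within that glial list Ptprz1, a receptor phosphatase of glial progenitors, was higher in the same groups as Cadm2. It averaged 424 ± 39.6 CPM in Hoxa5tdTomato and 396 ± 206 CPM in Math1Hoxa5-IRES-GFP, against 141.5 ± 52.3 CPM in references, and passed the edgeR test in both (log2 fold changes 1.58 and 1.49, adjusted p = 0.0141 and 0.0143). Within the sets Ptprz1 passed in neither. Hoxa5tdTomato had 1.73 against creErt2 references (edgeR, adjusted p = 0.05396) and Math1Hoxa5-IRES-GFP 1.36 against tdT references (adjusted p = 0.1145). Of the 9 tested genes of the list, 7 had a log2 fold change above 0 in Hoxa5tdTomato and 4 in Math1Hoxa5-IRES-GFP, with list medians of 0.40 and -0.37. Sox9, a factor of glial progenitors, averaged 13.3 CPM in Hoxa5tdTomato and 31.8 CPM in Math1Hoxa5-IRES-GFP, against 10.1 CPM in references. It was called in neither (edgeR, adjusted p = 0.766 and 0.0573). Other genes of the list were lower in Math1Hoxa5-IRES-GFP than in references, none of them called. Their log2 fold changes were -0.90 for Slc1a3, -0.70 for Fabp7, -0.37 for Aqp4, -1.21 for Aldh1l1 and -0.78 for Tnc. The part of glial RNA in the Cadm2 difference was not tested. Oligodendrocyte lineage markers, which bear on Cadm4, summed to 82.9 to 113 CPM in Hoxa5tdTomato and 60.5 to 93.2 CPM in Math1Hoxa5-IRES-GFP, against 57.4 to 98.5 CPM in references. GABAergic and glycinergic markers summed to 116 to 212 CPM in Hoxa5tdTomato and 146 to 323 CPM in Math1Hoxa5-IRES-GFP (Gad1 and Slc6a5 at 0), against 133 to 266 CPM in references. Gad2 alone made up 95.6% of that sum in Hoxa5tdTomato and 99.9% in Math1Hoxa5-IRES-GFP, against 97.5% in references.

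The genes whose pattern was most like that of each member were ranked by the root mean square difference of mean-centred log2 CPM over the 12 libraries, which is a description. For Cadm2 the closest were 1700010K23Rik (0.264), Brinp3 (0.316) and Gpc6 (0.352). Cadm2 itself varied with an SD of 1.08 on this scale. Brinp3, a neural gene of the BRINP family, had 96.1, 71.2 and 91.3 CPM in Hoxa5tdTomato and 146, 124 and 122 CPM in Math1Hoxa5-IRES-GFP, against 18.6 to 38.0 CPM in references. Gpc6, a heparan sulphate proteoglycan of the glypican family, had 52.5, 32.7 and 32.7 CPM in Hoxa5tdTomato and 74.3, 64.3 and 52.3 CPM in Math1Hoxa5-IRES-GFP, against 6.17 to 22.6 CPM in references. Both separated all Hoxa5 libraries from all references, as Cadm2 did. They were picked for likeness to Cadm2 in these libraries, so nothing is read from this.

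1700010K23Rik is not independent of Cadm2. It lies on the opposite strand inside Cadm2, at chr16:66657118-66664626, and shares 256 exon bases with it. It had 26.6, 17.1 and 20.8 CPM in Hoxa5tdTomato and 34.9, 25.8 and 16.04 CPM in Math1Hoxa5-IRES-GFP, against 3.73 to 12.2 CPM in references. No strand setting is stated, so reads of this antisense gene and of Cadm2 cannot be told apart where they overlap. Its counts came to 3.19% to 6.04% of those of Cadm2 in a library.

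Closest to Cadm1 were Rsrc1 (0.122), Glra2 (0.142) and Ddx55 (0.194), beside an SD of 0.41 of Cadm1 itself. Glra2, a glycine receptor subunit, had 158, 189 and 165 CPM in Hoxa5tdTomato and 169, 154 and 131 CPM in Math1Hoxa5-IRES-GFP. The creErt2 references had 225, 296 and 269.7 CPM and the tdT references 191.5, 209 and 183 CPM, so that its creErt2 references stood highest, like those of Cadm1. Cadm3 was closest to Sptbn1 (0.112), a spectrin gene, to Man2a2 (0.113) and to Rars (0.122). Cadm4 was closest to Slc39a6 (0.178), Zfp580 (0.183) and Zfp512 (0.183).

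Known binding partners and modifiers of Cadm proteins were examined as a list of 24 genes, of which 23 were tested and Nectin4 was not. The list was chosen with earlier results of these data known, so no enrichment is read from its counts of calls, here or below. In Math1Hoxa5-IRES-GFP against references 3 of 23 were called, all higher, where 1.84% of all genes were called, and the list median was 0.28 on the log2 scale, beside -0.0018 over all genes. In Hoxa5tdTomato against references 1 of 23 was called, where 1.73% of all genes were, and the list median was -0.02, beside 0.0049 over all genes.

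Lin7a, a PDZ scaffold of the complex with Cask and Mpp proteins, was higher in both Hoxa5 groups. It had 116.5, 126 and 97.7 CPM in Hoxa5tdTomato and 145, 114 and 91.2 CPM in the libraries labelled Math1Hoxa5-IRES-GFP, against 40.9 to 69.9 CPM in references, with no overlap. Of all genes, 7.15% stood above all references in Hoxa5tdTomato and 3.11% in Math1Hoxa5-IRES-GFP. It rose in Hoxa5tdTomato (log2 fold change 1.01 ± 0.19, edgeR adjusted p = 0.0141) and in Math1Hoxa5-IRES-GFP (1.05 ± 0.19, adjusted p = 0.00841). It also rose against creErt2 references alone (1.10 ± 0.23, adjusted p = 0.0384), while against tdT references alone the value was 0.96 ± 0.22 (adjusted p = 0.0616). The calls against all references held in 16 of 19 alternatives in either group, with adjusted p up to 0.1219 in Hoxa5tdTomato and 0.4129 in Math1Hoxa5-IRES-GFP. Some of these 19 compared only with the references of the set. The call against creErt2 references held in 9 of 18 alternatives, and the adjusted p ran up to 0.2498, the value without Hoxa5tdTomato replicate 2.

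Mpp6, a membrane-associated guanylate kinase that binds Cadm tails, rose in the libraries labelled Math1Hoxa5-IRES-GFP. It had 313, 234 and 216 CPM there and 134.5, 122 and 133 CPM in Hoxa5tdTomato, against 110 to 149 CPM in references. All Math1Hoxa5-IRES-GFP libraries stood above every other library. Of all genes, 3.11% stood above all references in this group. The change against references was 1.06 ± 0.15 (edgeR, adjusted p = 0.00105) and against tdT references 0.97 ± 0.17 (adjusted p = 0.00938). These calls held in 18 of 19 and 15 of 18 alternatives, with adjusted p up to 0.2255, the value for set 2 alone. That fit stands in both tallies and compared with tdT references only. Hoxa5tdTomato was lower than Math1Hoxa5-IRES-GFP by a log2 difference of -0.97 ± 0.18 (adjusted p = 0.0236), a comparison in which 3.35% of all genes were called and in which group and set cannot be told apart; this call held in 13 of 17 alternatives (adjusted p up to 0.1327).

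Nectin3, a nectin that binds Cadm1 from the facing cell and is listed as Pvrl3, had 85.8, 144 and 102 CPM in the libraries labelled Math1Hoxa5-IRES-GFP, against 36.8 to 61.8 CPM in references. It rose there by 1.11 ± 0.21 (edgeR, adjusted p = 0.00895). That call held in 16 of 19 alternatives, some of them against tdT references only (adjusted p up to 0.4625). Against tdT references alone Nectin3 had 0.97 ± 0.23 (edgeR, adjusted p = 0.0729). In Hoxa5tdTomato it had 78.8, 70.1 and 85.04 CPM, above all references, as in 7.15% of all genes. The log2 fold change there was 0.60 ± 0.21 (edgeR, adjusted p = 0.165). Lin7c, another Lin7 scaffold, passed only against tdT references (0.69 ± 0.15, adjusted p = 0.0397), with 686, 1032 and 820 CPM in Math1Hoxa5-IRES-GFP against 568, 507 and 498 CPM in tdT references. That call held in 5 of 18 alternatives.

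Between the Hoxa5 groups 5 of 23 partners were called, where 3.35% of all genes were called, and set cannot be told apart from group there. Epb41l2, a band 4.1 protein, was higher in Hoxa5tdTomato than in Math1Hoxa5-IRES-GFP, at 74.1 ± 5.56 CPM against 27.5 ± 16.3 CPM (1.43 ± 0.37, edgeR adjusted p = 0.0467). Besides Mpp6, the lower ones were Epb41l1 (-0.84 ± 0.21, adjusted p = 0.0429), the scaffold Cask (-0.62 ± 0.16, adjusted p = 0.0467) and syntenin, Sdcbp (-0.85 ± 0.22, adjusted p = 0.0467). The creErt2 references differed from the tdT references by -0.54 in Epb41l1, -0.30 in Cask, -0.19 in Mpp6, -0.0067 in Sdcbp and 0.13 in Epb41l2, none called. Within sets, Epb41l1 changed by -0.12 in Hoxa5tdTomato and 0.19 in Math1Hoxa5-IRES-GFP, and Cask by -0.19 and 0.13. Cask and Sdcbp kept the call in 5 of 17 alternatives each, Epb41l2 in 6 and Epb41l1 in 9. Crtam, a receptor of Cadm1 on lymphocytes, was at 0 in Math1Hoxa5-IRES-GFP and averaged 0.173 CPM in Hoxa5tdTomato, against 0.715 CPM in references. The floor of 3 counts was 0.107 to 0.274 CPM in a library.

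**Figure D5:**
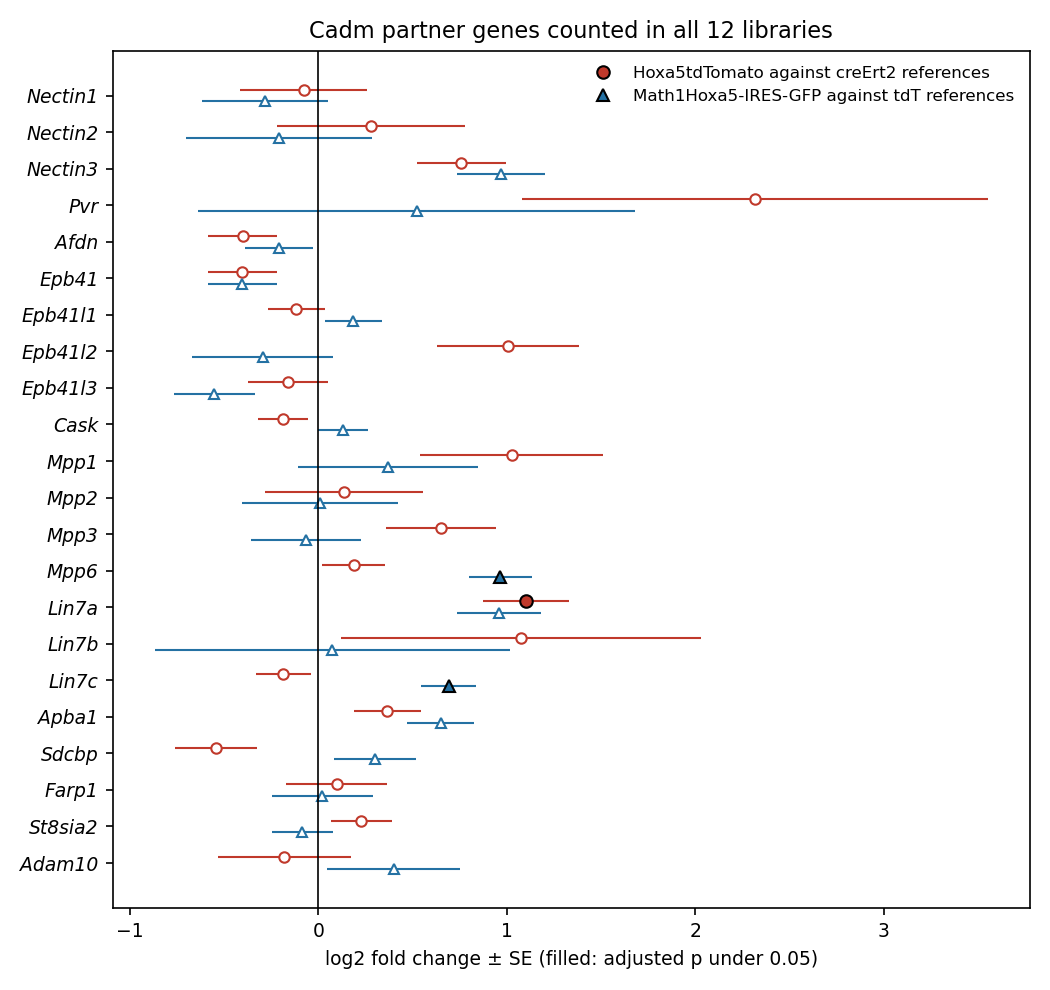
Log2 fold change with standard error of the 22 partner genes counted in all 12 libraries, Hoxa5tdTomato against creErt2 references as circles and Math1Hoxa5-IRES-GFP against tdT references as triangles; filled symbols have an edgeR adjusted p under 0.05. Lin7a is filled at 1.10 among the circles, and Mpp6 at 0.97 and Lin7c at 0.69 among the triangles.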

How the data were processed

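Per the labels' protocols, RNA of 1000 cell equivalents per replicate was amplified by SPIA and made into TruSeq Nano libraries from 1 ng of cDNA. The authors deposited raw read counts per gene in a table with gene lengths. The submitters' processing notes name the build mm10 and bcl2fastq 1.8.4. No aligner, counter, annotation or strand setting was given in the sources used here. Amplified reads carry no molecular identifiers, so floors cover counting error only. Reference columns could not be matched to single labels and were used by group.

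Genes were kept with filterByExpr (minimum count 10), scaled with TMM factors and tested with the edgeR 4.0.16 quasi-likelihood F test in R 4.3.3, with Benjamini-Hochberg adjustment over 14732 genes and a threshold of 0.05. Differences from all references and between the Hoxa5 groups come from a fit of 3 groups, within-set differences from a fit of 4. DESeq2 1.42.0 was an alternative. Scripts were tested on simulated data. Likeness used a prior count of 2.

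The members and gene lists were chosen with earlier results of these data known. Named were Hoxa5, the members, the 3 genes most like each, and each listed partner past the threshold in a comparison; Crtam and the markers were named after their values were seen.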

Additional observations from a re-analysis of the deposited data

Results flagged for a closer look

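Among 25 named genes examined over the 6 Math1tdTomato references, 2 had a library far from the others. For Mpp6, tdT reference replicate 2 had 149 CPM, above the other references at 110 to 122 CPM. For Zfp580, a zinc finger gene close to Cadm4 in pattern, the same library had 14.4 CPM, below the others at 16.4 to 17.1 CPM. Chance flags about 1 in 20 such groups. The Mpp6 value stays below every Math1Hoxa5-IRES-GFP library, which had 216 CPM or more.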

How the results depend on the processing

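The Cadm2 rise in Math1Hoxa5-IRES-GFP kept its direction in 19 of 19 alternatives to the test against all references (1.79 to 2.18, log2). It passed the threshold in 18. Among these 19, the fit of 4 groups, the fit of set 2 alone and the replicate block compared with tdT references only. They gave 2.06, 2.07 and 2.18, while the others ran from 1.79 to 2.08. The same fits stand among the 19 alternatives of every other gene, each against the references of the set. Against tdT references Cadm2 kept its direction in 18 of 18 alternatives (1.78 to 2.60) and passed in 17. The exception in both tallies was the same edgeR fit, that of set 2 alone (2.07, adjusted p = 0.0888). All 12 partner calls kept their direction in every alternative, but each was lost in at least 1. Cadm2 varied 2.85-fold among tdT references, and depth differed with the set. The replicate numbers did not pair the libraries (correlations of same-numbered deviations 0.0152 to 0.0264 in set 1 and -0.0281 to 0.0493 in set 2). With the replicate block the Cadm2 change in Math1Hoxa5-IRES-GFP was 2.18 (edgeR, adjusted p = 0.000306). In that fit 72 genes were called in Hoxa5tdTomato and 77 in Math1Hoxa5-IRES-GFP, each against the references of the set. Between the Hoxa5 groups and between reference sets no block fit was possible, because block and set coincide there.

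Values near 0 changed sign, with causes not tested. With library size as the only scaling, Cadm3 was -0.0379 in Math1Hoxa5-IRES-GFP against references, and between creErt2 and tdT references Cadm3 was 0.0916 and Cadm4 0.0863. With a library left out, Cadm3 ran from -0.126 to 0.243 in Math1Hoxa5-IRES-GFP against all references and from -0.130 to 0.239 against tdT references, and Cadm4 from -0.00627 to 0.594 against tdT references. Between creErt2 and tdT references the same ranges were -0.0245 to 0.796 for Cadm2, -0.0379 to 0.0251 for Cadm3 and -0.136 to 0.123 for Cadm4.

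Counts of called genes moved more. Hoxa5tdTomato against all references had 255 calls, with 671 by DESeq2 and 35 to 728 with a library left out. Math1Hoxa5-IRES-GFP against all references had 271, with 983 by DESeq2 and 190 to 575 with a library left out. Hoxa5tdTomato against Math1Hoxa5-IRES-GFP had 493, with 142 at library size scaling, 1191 in the fit of 4 groups, 1615 with DESeq2 and 0 to 1157 with a library left out (0 without Hoxa5tdTomato replicate 1). Hoxa5tdTomato against creErt2 references had 82, with 980 for set 1 alone, 302 with DESeq2 and 19 to 364. Math1Hoxa5-IRES-GFP against tdT references had 127, with 10, 690 and 52 to 365. References against each other had 197, with 668 by DESeq2 and 40 to 784. Library size scaling shifted the split of higher and lower calls to 170 and 70 from 124 and 131 in Hoxa5tdTomato, to 105 and 94 from 191 and 80 in Math1Hoxa5-IRES-GFP, both against references, and to 110 and 32 from 135 and 358 between them.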
